A study of Mus musculus with 2 samples.

Results

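The data describe 10 chemokine ligands (Ccl2, Ccl3, Ccl4, Ccl6, Ccl7, Ccl9, Ccl12, Ccl24, Cxcl2 and Cxcl16) in myeloid cells of the mouse retina. They were found by their symbols among the 31053 genes counted, and all 10 had at least 1 UMI (unique molecular identifier, a counted RNA molecule) in both libraries. The study compared retinas from C57BL/6j pups with oxygen-induced retinopathy (OIR), in which a stay in high oxygen followed by room air leads to abnormal vessel growth, with retinas from control pups kept in room air (RA), both at postnatal day 17. Live CD11b+F4/80+ cells were sorted after enzymatic digestion of the retinas and sequenced as 1 pooled 10x Genomics 3′ library per condition, so condition and library cannot be told apart, and no test between RA and OIR was possible. Every interval given here is a 95% interval for counting error only, written as a range in parentheses, and it does not hold the spread between retinas or between cells.

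Chemokines are small secreted proteins that direct the movement of leukocytes through G protein-coupled receptors. CC ligands such as Ccl2 and Ccl7 attract monocytes, Ccl3 and Ccl4 attract monocytes and T cells, and Cxcl2 attracts neutrophils. In the retina, microglia are the resident macrophages of the tissue, and perivascular macrophages and blood monocytes are further myeloid sources of these ligands. In microglia, chemokine genes are also known to be induced by tissue digestion itself.

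All 10 genes were placed on the GRCm38.p6 assembly, the same coordinates as the mm10 build the submitters named. Cxcl16 lies on chromosome 11 at 70454389-70459984, and the CC ligands form 2 groups further along the same chromosome. Ccl2 (82035577-82037452), Ccl7 (82045712-82047525) and Ccl12 (82101845-82103399), all ligands of the receptor Ccr2, are neighbors. Ccl9 (83572917-83578636), Ccl6 (83587886-83593087), Ccl3 (83647843-83649378) and Ccl4 (83648624-83664683) form the second group, in which the annotated spans of Ccl3 and Ccl4 overlap. Cxcl2 (90903899-90905938) and Ccl24 (135569935-135573123) lie on chromosome 5.

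The RefSeq promoter table held 5 of the 10 ligands, and the 250 bases before their start sites are shown because these 5 genes stand for the patterns described here: Cxcl2 and Ccl12 were highest in macrophages and differed between RA and OIR, Ccl3 was abundant in microglia, and Ccl6 and Ccl9 were highest in monocytes. Capitals mark matches, on either strand, to the NF-kappaB consensus, the AP-1 motif TGANTCA, the C/EBP motif TTGCNNAA, the PU.1 core GAGGAA or the TATA motif TATAA, some of which overlap.
Cxcl2 (chr5:90903649-90903898, + strand): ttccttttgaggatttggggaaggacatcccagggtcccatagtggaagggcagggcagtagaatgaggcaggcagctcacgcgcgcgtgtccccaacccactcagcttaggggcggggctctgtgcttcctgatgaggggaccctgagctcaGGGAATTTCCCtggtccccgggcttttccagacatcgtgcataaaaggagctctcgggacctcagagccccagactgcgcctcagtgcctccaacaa
Ccl3 (chr11:83649379-83649628, - strand): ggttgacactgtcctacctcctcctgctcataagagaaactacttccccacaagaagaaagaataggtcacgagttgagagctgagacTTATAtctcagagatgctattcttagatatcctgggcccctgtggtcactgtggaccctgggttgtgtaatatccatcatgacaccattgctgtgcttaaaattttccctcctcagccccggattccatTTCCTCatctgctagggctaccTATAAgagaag
Ccl12 (chr11:82101595-82101844, + strand): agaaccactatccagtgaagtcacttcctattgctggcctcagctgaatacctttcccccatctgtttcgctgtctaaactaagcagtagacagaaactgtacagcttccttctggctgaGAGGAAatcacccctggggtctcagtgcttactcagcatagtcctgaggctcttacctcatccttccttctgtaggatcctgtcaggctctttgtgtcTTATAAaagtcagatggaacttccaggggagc
Ccl6 (chr11:83593088-83593337, - strand): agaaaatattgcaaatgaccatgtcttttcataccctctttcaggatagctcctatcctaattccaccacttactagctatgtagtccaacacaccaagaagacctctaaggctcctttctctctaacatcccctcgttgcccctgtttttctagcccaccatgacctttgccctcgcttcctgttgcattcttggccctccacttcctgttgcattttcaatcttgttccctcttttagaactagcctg
Ccl9 (chr11:83578637-83578886, - strand): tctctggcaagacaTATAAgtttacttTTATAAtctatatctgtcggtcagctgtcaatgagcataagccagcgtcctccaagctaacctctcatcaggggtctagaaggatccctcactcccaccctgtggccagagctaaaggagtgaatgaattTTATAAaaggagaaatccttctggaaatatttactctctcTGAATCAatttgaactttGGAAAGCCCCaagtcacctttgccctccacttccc
Cxcl2 held the NF-kappaB consensus on both strands, 97 to 87 bases before its start, and Ccl9 held it 35 to 26 bases before its start, against 7.25% of all 32851 promoters in the table. Ccl9 was the only one of the 5 with the AP-1 motif, which 6.75% of promoters held. Ccl3 and Ccl12 each held the PU.1 core (23.3% of promoters) and the TATA motif (22.8%), Ccl9 held the TATA motif as well, and Ccl6 held none of the 5 motifs. None of these 5 windows held the C/EBP motif, present in 9.56% of promoters.

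The RA library held 1449 cells with a median of 8607 UMIs and the OIR library 1259 cells with a median of 5254 UMIs, and they shared 0 cell barcodes. After filtering, 977 RA cells and 939 OIR cells lay in clusters where over 10% of cells held Ptprc (CD45). Of these, 945 and 916 were in the 4 classes compared here. The rest were an endothelial or pericyte cluster (5 and 10 cells) and an unnamed shallow cluster (27 and 13). The clusters, made without any chemokine ligand or receptor gene, were named from marker lists as microglia-like (779 RA cells and 565 OIR cells), dividing (17 and 117), macrophage-like (96 and 142) and monocyte-like (53 and 92). Genes leading the clusters were P2ry12, Siglech and Adgrg1 for the largest microglial clusters and Mki67 and Top2a for dividing cells. Mrc1, Lyve1 and Cd163 led the larger macrophage cluster, and Plac8, Ace and Ifitm6 the monocytes. The smaller microglial clusters were led by Cryba4 and Crybb1, by Hmox1 and Prdx1, and by Slc7a11 and Lpl. The latter pair of clusters was named microglia only through the disease-associated genes Lpl and Igf1. Folr2, Fcna and Igfbp4 led the smaller macrophage cluster. Rods (189 and 153 cells) also passed the sort and served as the cells that should lack the ligands. In 2 microglial clusters and 1 macrophage cluster the nuclear RNA Malat1 was under 3000 CPM (UMIs scaled to an equal total) and the median depth was between 2392 and 2588 UMIs. These Malat1-poor clusters made up 9.37% of the microglia-like class in RA and 33.3% in OIR, and 16.7% and 30.3% of the macrophage-like class, so values are also given without them.

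Levels across the 4 cell classes fell into 3 patterns, which are described as CPM, the UMIs of a ligand summed over the cells of a class and library and scaled to an equal total. These 3′ UMI counts do not scale with transcript length. Whether the same share of molecules was counted for each ligand is not known, so an order of different ligands is an order of counts.

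Ccl3 and Ccl4, attractants of monocytes and T cells, were the most abundant of the ligands in microglia by UMI count. Ccl3 reached 6310.2 (6255 to 6366) in RA and 5141 (5072 to 5211) in OIR microglia-like cells, and 7642 (7490.1 to 7796) and 4285 (4184 to 4389) in macrophage-like cells. Ccl4 reached 8529 (8464 to 8594) and 5463 (5391 to 5534) in microglia-like cells, and 8909.5 (8746 to 9076) and 3933 (3835 to 4032) in macrophage-like cells. The order of these 2 classes changed with the library for both genes, macrophages being higher in RA and microglia in OIR. Monocyte-like cells were lowest, at 1312 and 1709.6 for Ccl3 and 2813 and 1811 for Ccl4.

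Cxcl2, Ccl2, Ccl7 and Ccl24 were highest in macrophage-like cells in both libraries. Ccl7, a ligand of several monocyte receptors, stood at 3402 (3301 to 3505) in RA macrophage-like cells against 177 (168 to 187) in microglia-like cells, a 19.2-fold difference, and at 4484 (4380.4 to 4590.3) against 266 (250.2 to 282) in OIR, a 16.9-fold difference. Cxcl2 was 18.2-fold higher in macrophages than in microglia in RA, at 5862 (5729 to 5997) against 322 (310.0 to 335), and 5.38-fold higher in OIR, at 3766 (3671 to 3863) against 699.7 (674 to 726). The smaller Cxcl2 gap in OIR came with a lower level in macrophages and a higher level in microglia. Ccl2, the main ligand of Ccr2, was 4.52-fold higher in macrophages in RA and 3-fold higher in OIR. Ccl24, a ligand of the eosinophil receptor Ccr3, reached 327 (297 to 361) in RA and 196 (174 to 219) in OIR macrophage-like cells. In microglia-like, dividing and monocyte-like cells Ccl24 stayed between 2.99 and 21, under the 50 CPM required for a comparison.

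Ccl12, a further Ccr2 ligand, was also highest in macrophage-like cells, at 3105 (3009 to 3204) in RA and 967 (919 to 1016) in OIR, and was lowest in monocyte-like cells (329.9 and 255). In RA, 6 of the 10 ligands were at least 2-fold higher in macrophage-like than in microglia-like cells (Ccl2, Ccl7, Ccl12, Ccl24, Cxcl2 and Cxcl16), where 8.88% of all genes compared were. In OIR 4 of the 10 were (Ccl2, Ccl7, Ccl24 and Cxcl2), against 7.85% of all genes. At least 2-fold lower in macrophages were 0 ligands in either library, against 4.44% of all genes in RA and 3.72% in OIR. The median log2 ratio of macrophages over microglia was 1.23 for the ligands and -0.08 for all genes in RA, and 0.58 and 0.05 in OIR. Ccl24 passed the 50 CPM limit only through its level in macrophage-like cells. Its place in these counts and medians was therefore fixed by that limit.

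Ccl6 and Ccl9, both ligands of Ccr1, were highest in monocyte-like cells. Ccl6 stood at 675 (614 to 739.9) in RA and 539 (492 to 589) in OIR monocyte-like cells, 4.48-fold and 4.09-fold above microglia. Ccl9 stood at 319 (278 to 365) and 282 (248 to 318) in monocytes, 2.01-fold and 1.84-fold above microglia. In OIR the larger macrophage cluster held Ccl9 at 237 (213 to 264), an interval that overlapped that of monocytes. In RA these were 2 of the 9 ligands compared at 2-fold or more, against 18.3% of all genes, and in OIR Ccl6 was the 1 of 9, against 14.3%. At least 2-fold lower in monocytes were 3 of 9 ligands in RA (Ccl3, Ccl4 and Ccl12) and 4 of 9 in OIR (Ccl2, Ccl3, Ccl4 and Ccl12), against 10.5% and 5.73% of all genes. Cxcl16, a membrane-bound ligand that binds Cxcr6, had the smallest span among the classes: its 8 values ran from 68.1 in RA dividing cells to 285 in OIR macrophage-like cells.

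**Figure D1:**
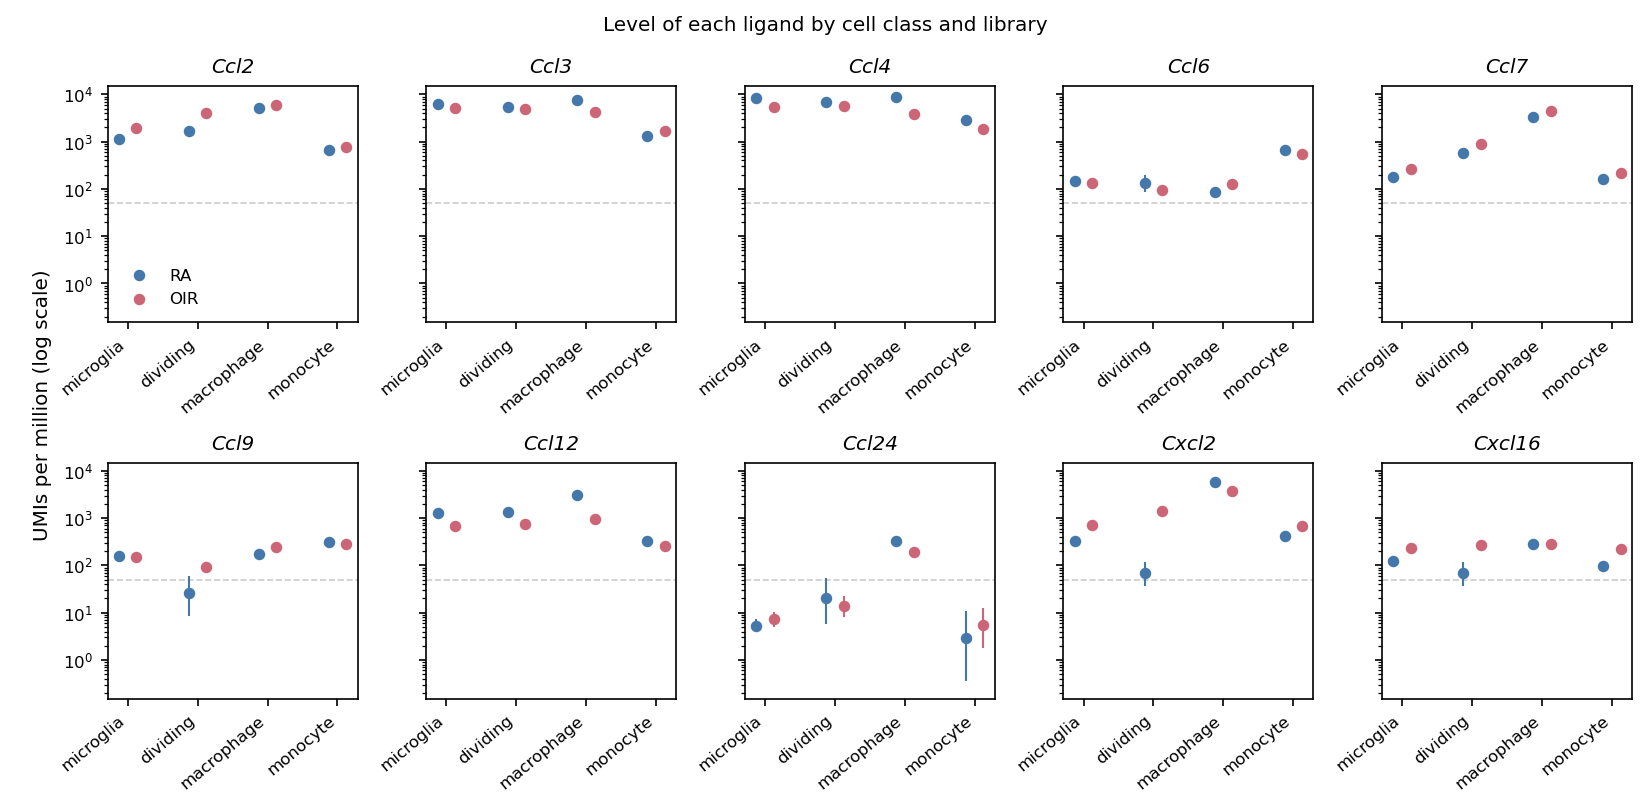
Level of each ligand (y axis, CPM, log scale), in RA (blue) and OIR (red) cells of the 4 classes, with bars for the 95% counting interval and a dashed line at 50. Ccl7, Ccl24 and Cxcl2 peak in macrophage-like cells, Ccl6 and Ccl9 in monocyte-like cells, and Ccl24 lies under the line in the other 3 classes.

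Between RA and OIR, the ligands of microglia-like cells differed in both directions. Cxcl2 went from 322 (310.0 to 335) to 699.7 (674 to 726) CPM, a log2 ratio of 1.12 (1.04 to 1.2). Cxcl16 went from 123 (115 to 131) to 235 (220.3 to 250.1), a log2 ratio of 0.93 (0.80 to 1.06), and Ccl2 from 1116 (1093 to 1139.8) to 1967 (1924 to 2010.0), a log2 ratio of 0.82 (0.77 to 0.86). Ccl7 had a log2 ratio of 0.59 (0.47 to 0.70). These ligands were higher in OIR with intervals above 0, and how many of all genes had such intervals was not computed. Ccl12 was lower, at 1283 (1258 to 1309) in RA and 675 (651 to 701) in OIR, a log2 ratio of -0.93 (-0.99 to -0.87). Ccl4 was lower by a log2 ratio of -0.64 (-0.66 to -0.62), and Ccl3 by -0.30 (-0.32 to -0.27). The interval of Ccl6 also lay below 0 at -0.19 (-0.34 to -0.05), while that of Ccl9 held 0 at -0.06 (-0.20 to 0.08). The neighbors Ccl2, Ccl7 and Ccl12 thus did not share a direction: Ccl2 and Ccl7 were higher in OIR and Ccl12 lower.

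Of the 9 ligands compared in microglia-like cells, only Cxcl2 was at least 2-fold higher in OIR, where 6.1% of all genes compared were, and 0 were at least 2-fold lower, where 6.73% of all genes were. The count was 0 under a finer clustering, and with the top 5% of each library left out Cxcl2 was at 0.66, below the limit, while Ccl12 at -1.08 passed it. The share of all genes past 2-fold under these other settings was not computed. The median log2 ratio was -0.06 for the ligands and 0.03 for all genes. Without the Malat1-poor clusters Cxcl2 was again the 1 ligand past 2-fold higher (4.71% of all genes) and 0 were lower (5.74%), with log2 ratios of 1.27 (1.2 to 1.35) for Cxcl2, 0.96 (0.92 to 1.01) for Ccl2, -0.81 (-0.87 to -0.75) for Ccl12 and -0.50 (-0.52 to -0.47) for Ccl4. Malat1 itself was lower in OIR in those remaining clusters, at 18822 CPM in RA and 7456 in OIR, and the summed list of 18 ex vivo and stress genes was 38068 in RA and 31188 in OIR. The summed list of 9 homeostatic microglia genes was 9834 CPM in RA and 8522 in OIR over all microglia-like cells, and that of 14 disease-associated microglia genes was 22786 and 26334. The part of these in the ligand values was not tested.

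In macrophage-like cells too the ligands differed in both directions between RA and OIR, Ccl12 and Ccl4 by the most. How many of all genes had an interval that did not hold 0 was not computed. Ccl12 went from 3105 (3009 to 3204) in RA to 967 (919 to 1016) in OIR, a log2 ratio of -1.68 (-1.77 to -1.60), and Ccl4 from 8909.5 (8746 to 9076) to 3933 (3835 to 4032), a log2 ratio of -1.18 (-1.22 to -1.13). These were the 2 of 10 ligands at least 2-fold lower in OIR, against 6.34% of all genes, and 0 were at least 2-fold higher, against 8.17%. With the top 5% of each library left out Ccl4 was at -0.90, short of 2-fold, and Ccl9 at 1.03, past it. Ccl3 (-0.83, interval -0.88 to -0.79), Ccl24 (-0.74, interval -0.96 to -0.53) and Cxcl2 (-0.64, interval -0.69 to -0.59) were also lower on the log2 scale. Ccl6 (0.57, interval 0.22 to 0.91), Ccl9 (0.50, interval 0.25 to 0.74), Ccl7 (0.40, interval 0.34 to 0.45) and Ccl2 (0.22, interval 0.18 to 0.27) were higher, and the interval of Cxcl16 held 0 (0.02, interval -0.18 to 0.23). The median log2 ratio was -0.31 for the ligands and 0.16 for all genes. Without the Malat1-poor macrophage cluster the log2 ratios were -1.67 (-1.76 to -1.59) for Ccl12 and -1.14 (-1.19 to -1.10) for Ccl4. The summed ex vivo and stress list was 36322 CPM in RA and 26139.9 in OIR macrophage-like cells. The make-up of the class differed between the libraries too. Its dendritic cell list was 4156 in RA and 2081 in OIR, its interferon response list 2508 and 1504 and its nuclear RNA list 19565 and 7628. Its macrophage list was 5859 in RA and 6926 in OIR, and its microglia list 26352 and 34027. The part of these lists in the ligand differences was not tested.

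In monocyte-like cells Cxcl16 went from 95.5 (73.6 to 122) in RA to 219 (189 to 251) in OIR, a log2 ratio of 1.19 (0.78 to 1.62). It was the 1 of 9 ligands at least 2-fold higher, against 5.89% of all genes, and 0 were at least 2-fold lower, against 7.32%. Cxcl2 (0.67, interval 0.47 to 0.88), Ccl3 (0.38, interval 0.26 to 0.50), Ccl7 (0.36, interval 0.02 to 0.71) and Ccl2 (0.24, interval 0.07 to 0.42) had higher log2 values in OIR, and Ccl4 (-0.63, interval -0.73 to -0.54), Ccl12 (-0.37, interval -0.64 to -0.10) and Ccl6 (-0.32, interval -0.51 to -0.14) lower ones. The interval of Ccl9 held 0 (-0.18, interval -0.45 to 0.09). Ccl3 kept its sign under 11 of 14 other settings and was as low as -0.27. The make-up of the class differed between the libraries: its summed dendritic cell list was 10138.0 CPM in RA and 5933 in OIR, its neutrophil list 1785 and 447, its monocyte list 8333 and 5138 and its interferon response list 4671 and 1980. Its microglia list was 10829 in RA and 18693 in OIR and its disease-associated microglia list 10616 and 23391. The part of these in the ligand values was not tested. Single cells carried several of these values: in RA, 1 cell held 104 of the 111 Ccl7 UMIs and 1 cell held 128 of the 221 Ccl12 UMIs. Leaving out the 1 cell per library with most UMIs of each ligand turned the log2 ratio of Ccl12 to 0.47 and moved that of Ccl7 to 3.50.

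The dividing class rested on 17 RA cells and is described with that limit. Ccl2 stood at 1687 (1508 to 1882) in RA and 4087 (3974 to 4203) in OIR, a log2 ratio of 1.28 (1.11 to 1.44), and Cxcl16 at 68.1 (36.3 to 116) and 273 (245 to 304), a log2 ratio of 2 (1.21 to 2.93). Both kept that direction under all 15 other settings tried. Ccl9 (5 UMIs in RA and 114 in OIR) had a log2 ratio of 1.84 (0.58 to 3.49). It was at 26.2 CPM in RA and 94.1 in OIR and passed the 50 CPM limit only through OIR. That limit therefore fixed its direction in the count below. With every cell thinned to 2000 UMIs its log2 ratio was -0.08. Cxcl2 had 13 UMIs in RA, 12 of them in 1 cell of 853 UMIs, and 1698 in OIR, a log2 ratio of 4.36 (3.58 to 5.27). It is the largest ratio among the 4 classes and the one with the widest range, since it ran from -0.49 to 8.22 over the other settings. These 4 ligands were the 4 of 9 at least 2-fold higher in OIR, against 11.3% of all genes, with 0 at least 2-fold lower, against 11.7%. A different RA cell held 1235 UMIs of the neutrophil marker list, where the next highest RA cell held 3 and no OIR cell more than 7. Without the 3 RA cells and 17 OIR cells that held more macrophage than homeostatic microglia UMIs, the median ratio of the ligands changed from 0.63 to -0.24.

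Across the 4 classes, Ccl2 and Ccl7 were higher in OIR in all 4, and Ccl4 and Ccl12 were lower in OIR in all 4, each with an interval that did not hold 0. The classes come from the same 2 libraries, and the share of all genes with 1 direction in all 4 was not computed. The direction of Ccl7 and Ccl12 in the dividing and monocyte-like cells, of Ccl4 in dividing cells and of Ccl2 in macrophage-like cells turned under at least 1 other setting, whereas all 4 ligands kept their direction under all 15 settings in microglia-like cells.

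**Figure D2:**
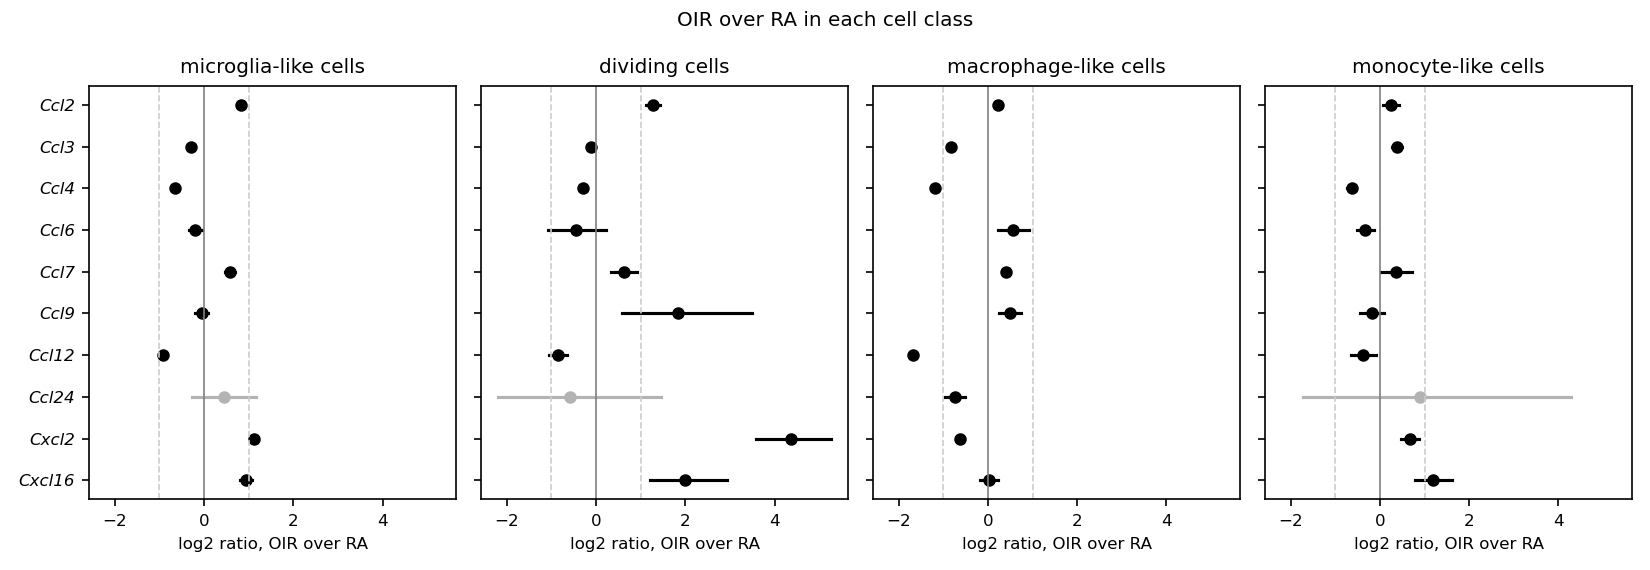
Log2 ratio of OIR over RA (x axis) for each ligand (y axis) in the 4 classes, with 95% counting intervals as lines, dashed lines at 2-fold, and grey for ligands under 50 CPM in both libraries. Ccl4 and Ccl12 lie left of 0 and Ccl2 and Ccl7 right of 0 in every panel, and Cxcl2 is at 1.12 in microglia-like cells and -0.64 in macrophage-like cells.

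Whether more cells held a ligand was asked from the share of cells with at least 1 UMI, with every cell thinned to 2000 UMIs and shallower cells left out. In microglia-like cells 752 RA cells and 491 OIR cells remained. The share with Ccl2 was 44.3% (40.7 to 47.9) in RA and 57.8% (53.3 to 62.3) in OIR, and the share with Cxcl2 was 10.9% (8.77 to 13.4) and 20.4% (16.9 to 24.2). The share with Cxcl16 was 18.9% (16.1 to 21.9) and 28.3% (24.4 to 32.5), and that with Ccl12 was 62.9% (59.3 to 66.4) and 43.2% (38.7 to 47.7). For these 4 ligands the intervals of the libraries did not overlap. The share of all genes with such intervals was not computed, so this is not read as a trait of the ligands. Ccl7 was found in 11.7% (9.49 to 14.2) of RA and 13.2% (10.4 to 16.6) of OIR microglia-like cells, with overlapping intervals, although its level differed. At full depth (a median of 10220 UMIs per RA and 6657 per OIR microglia-like cell) the shares were 61% and 65% for Ccl2, 15.9% and 23.4% for Cxcl2, 53.9% and 57.7% for Cxcl16, and 83.7% and 59.8% for Ccl12.

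These shares depended on the Malat1-poor cells. Without them, Ccl2 was found in 46.5% (42.8 to 50.3) of RA and 69.5% (64.6 to 74.1) of OIR microglia-like cells, Cxcl2 in 11.6% (9.36 to 14.2) and 25.7% (21.3 to 30.4), and Ccl12 in 64.8% (61.2 to 68.4) and 49.5% (44.3 to 54.7). Ccl3 was found in 85% (82.1 to 87.5) and 88% (84.2 to 91.1) and Ccl4 in 88.9% (86.4 to 91.2) and 91.7% (88.4 to 94.3), so both shares were slightly higher in OIR with overlapping intervals while both levels were lower. With all cells of the class, the shares of Ccl3 (81.2% and 76.6%) and Ccl4 (85.1% and 79%) were lower in OIR, but with cells thinned to 4000 UMIs that of Ccl3 was 85.5% and 89.5%.

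In macrophage-like cells (91 in RA and 125 in OIR) Ccl12 was found in 80.2% (70.6 to 87.8) and 64% (54.9 to 72.4), Ccl2 in 78% (68.1 to 86) and 80% (71.9 to 86.6), and Cxcl2 in 63.7% (53 to 73.6) and 65.6% (56.6 to 73.9). For Cxcl2 the level was lower in OIR while the share was nearly equal. Ccl24 was found in 27.5% (18.6 to 37.8) and 17.6% (11.4 to 25.4) of macrophage-like cells. In monocyte-like cells (52 and 87) Ccl6 was found in 69.2% (54.9 to 81.3) and 51.7% (40.8 to 62.6). At full depth it was found in 52 of the 53 RA monocyte-like cells and 70 of the 92 OIR ones. Cxcl16 was found in 7.69% (2.14 to 18.5) and 21.8% (13.7 to 32) of monocyte-like cells, and Ccl4 in 30.8% (18.7 to 45.1) and 43.7% (33.1 to 54.7), a higher share in OIR beside a lower level. In dividing cells (16 and 96) Ccl2 was found in 31.2% (11 to 58.7) and 68.8% (58.5 to 77.8).

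Rods gave the background. At full depth (a median of 1457 UMIs per RA rod and 1035 per OIR rod) Ccl4 was found in 8.47% (4.92 to 13.4) of RA and 0.654% (0.0165 to 3.59) of OIR rods, and Ccl3 in 4.76% (2.2 to 8.85) and 0.654% (0.0165 to 3.59). Each of the other 8 ligands was found in at most 2.65% of rods in either library. At 1000 UMIs per cell Ccl4 was found in 6% (2.78 to 11.1) of 150 RA rods and 1.2% (0.0305 to 6.53) of 83 OIR rods. Ccl24 was found in 0 of 189 RA and 0 of 153 OIR rods at full depth, where a floor of 3 cells would be 1.59% and 1.96%. At 1000 UMIs its share of microglia-like cells was 0.391% and 1.1%. At full depth 32 of 779 RA microglia-like cells held it. Because the rods were shallower and held none, these values cannot show whether Ccl24 in microglia-like cells is background.

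**Figure D3:**
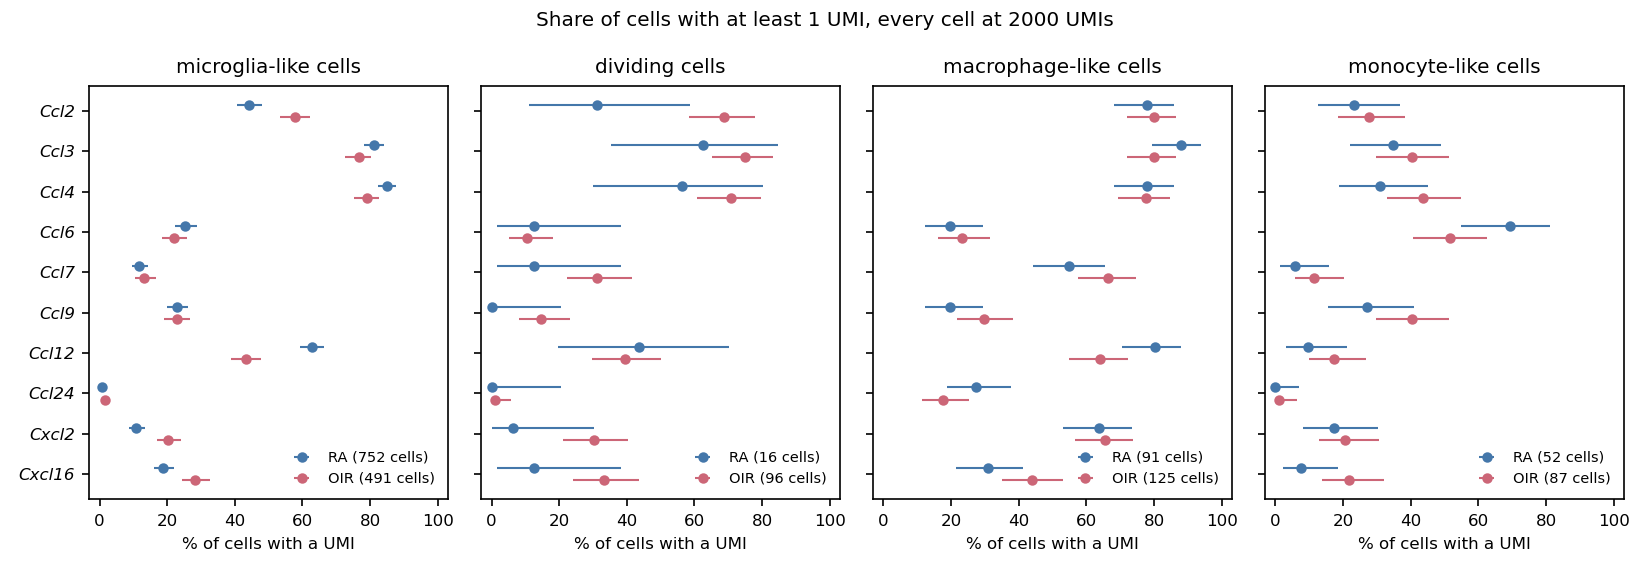
Percent of cells with at least 1 UMI of each ligand at 2000 UMIs per cell (x axis), in RA (blue) and OIR (red) cells of the 4 classes, with exact binomial 95% intervals. In microglia-like cells the RA and OIR intervals are apart for Ccl2, Ccl12, Cxcl2 and Cxcl16, and the RA intervals of the 16 dividing cells are wide. How many of all genes have intervals apart was not computed.

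With clusters pooled, 6 ligands were much lower in the Malat1-poor than in the other microglia-like cells and 3 were not. In RA, Malat1-poor microglia-like cells held 22.7-fold less Cxcl2 (4 UMIs), 18.2-fold less Ccl4, 17.5-fold less Ccl2 and 15.6-fold less Ccl3 in CPM than the other microglia-like cells. In OIR the same differences were 12-fold, 7.88-fold, 7.27-fold and 6.6-fold. Ccl7 and Ccl12 were 4.51-fold and 3.23-fold lower in RA and 3.68-fold and 3.26-fold lower in OIR. By cluster Ccl7 was not lower throughout: the larger Malat1-poor cluster held 16.9 CPM in RA and 117 in OIR, and the second largest cluster with Malat1 held 16.6 and 61.1. For Ccl6, Cxcl16 and Ccl9 the difference was under 2-fold. The log2 ratio of Ccl6 was 0.38 (-0.04 to 0.78) in RA and 0.61 (0.29 to 0.91) in OIR, that of Cxcl16 was 0.15 (-0.37 to 0.62) and -0.03 (-0.31 to 0.23), and that of Ccl9 was -0.87 (-1.52 to -0.29) and -0.36 (-0.74 to -0.01).

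In each library 6 of the 9 ligands compared were at least 2-fold lower in the Malat1-poor cells, against 34.9% of all genes in RA and 25.7% in OIR, and 0 were at least 2-fold higher, against 10.2% and 4.98%. The median log2 ratio was -2.17 for the ligands and -0.38 for all genes in RA, and -1.88 and -0.05 in OIR. In RA, Cxcl2 and Ccl7 passed the 50 CPM limit only through the other microglia-like cells. That limit therefore fixed their direction in the RA count and median. The Malat1-poor cells were shallower, and their summed ex vivo and stress list was 4346 CPM against 38068 in RA and 5348 against 31188 in OIR. The summed list of 5 lens crystallin genes went the other way, at 6578 against 10.7 in RA and 951 against 28.6 in OIR. The part of depth and of these lists in the ligand differences was not tested.

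Within the Malat1-poor microglia-like cells themselves, Ccl3 went from 418 (345 to 503) in RA to 887 (813 to 966) in OIR and Ccl4 from 485 (405 to 575) to 793 (723 to 868). The make-up of the Malat1-poor microglia-like cells differed between the libraries. Their summed nuclear RNA list was 1887 CPM in RA and 73.9 in OIR, and their dendritic cell list 2199 and 442. Their macrophage list was 653 and 349, and their disease-associated microglia list 25661 and 31772. The part of these in the ligand values was not tested. With clusters pooled, Ccl3 and Ccl4 were higher in OIR in these cells and lower in OIR in the other microglia-like cells. Single clusters differed from this: the smaller Malat1-poor cluster, of 8 RA cells and 61 OIR cells, had log2 ratios of -0.39 (interval -0.98 to 0.24) for Ccl3 and -0.72 (interval -1.44 to 0.07) for Ccl4. In 1 cluster with Malat1, of 149 RA cells and 69 OIR cells, Ccl3 was at 0.20 (interval 0.14 to 0.25). In another, of 258 RA cells and 102 OIR cells, its interval held 0 at 0.01 (-0.04 to 0.07). In the largest, of 289 and 185 cells, Ccl3 was at -0.40 (interval -0.43 to -0.37). In the smallest, of 10 and 21 cells, it was at -1.42 (interval -1.53 to -1.31). Malat1-poor macrophages are shown for contrast: their Ccl12 stood at 2771 (2327 to 3276) in RA and 834 (675 to 1018) in OIR, a log2 ratio of -0.17 (-0.43 to 0.08) and -0.23 (-0.54 to 0.07) to the other macrophages, while Ccl3 was 4.28-fold and 3.7-fold lower than in them.

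The microglial clusters with Malat1 also differed from each other. The largest and the next largest shared P2ry12, Siglech and Adgrg1 among their 10 leading genes. The largest, which also had Gpr84, Il1a and Tnf there, held Ccl7 at 387 CPM in RA and 437 in OIR. The next largest, which also had Tmem119 and Selplg there, held Ccl7 at 16.6 and 61.1. Ccl2 was 1812 and 2657 in the first and 491 and 982 in the second. A small cluster of 10 RA cells and 21 OIR cells, led by Slc7a11 and Lpl, held the highest microglial Ccl3 and Ccl4 in RA (13095 and 18208) but not in OIR (4896 and 5108), and the highest microglial Cxcl16 in OIR (562).

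**Figure D4:**
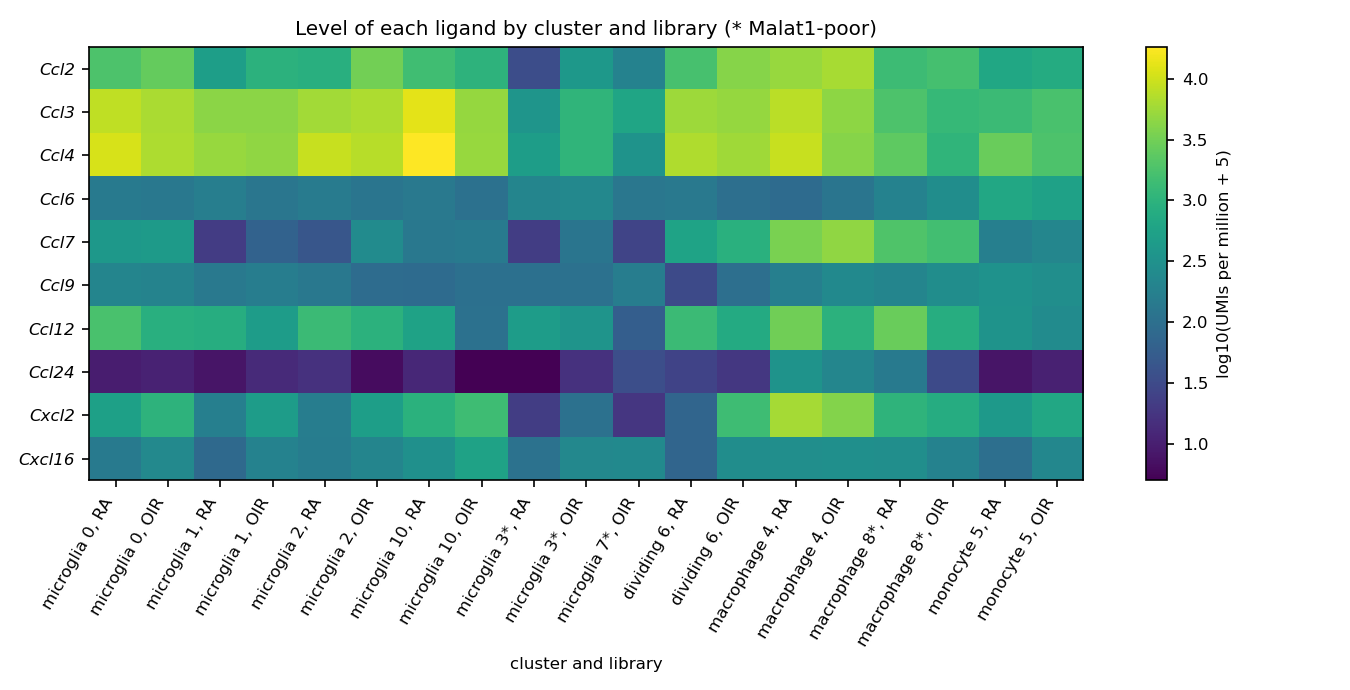
Level of each ligand (rows) in each cluster and library of at least 10 cells (columns), as log10 of CPM plus 5, with a star on Malat1-poor clusters. Darker shades are lower levels: Ccl2, Ccl3, Ccl4 and Cxcl2 are darker in the starred microglial clusters than in the other microglial clusters, and the starred macrophage cluster keeps Ccl12.

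Few cells carried much of each ligand. In RA microglia-like cells 18 of 779 cells held at least 50% of the Cxcl2 UMIs and 22 cells held at least 50% of the Ccl7 UMIs, and in OIR 22 and 14 of 565 cells did. For Ccl3 the same numbers were 141 and 80 cells, so Ccl3 was spread over more microglia than Cxcl2 or Ccl7. In the macrophage-like class 8 cells (of 96) in RA and 6 (of 142) in OIR held at least 50% of the Ccl24 UMIs, and for Ccl9 these were 7 and 18 cells.

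At 2000 UMIs per cell, a microglia-like cell held a median of 4 of the 10 ligands in both libraries and a macrophage-like cell a median of 6, against 2 in monocyte-like cells and 0 in rods. In microglia-like cells outside the Malat1-poor clusters, the pairs with the highest share over that in all cells were Ccl7 with Cxcl2 and Ccl7 with Ccl2 in both libraries. This measure is capped by the share of the commoner ligand. Pairs with Ccl3 or Ccl4, which most of these cells held, could therefore not reach the top, and their place does not show whether they go together. Of the 86 RA cells with Ccl7, 87.2% held Ccl2, against 46.5% of all 705 cells, and of the 57 OIR cells with Ccl7, 94.7% held Ccl2, against 69.5% of all 374. Of the same Ccl7 cells 23.3% in RA and 38.6% in OIR held Cxcl2, against 11.6% and 25.7% of all cells. Ccl2 and Cxcl2, both found more often in cells with Ccl7, were not found more often with each other: 47.6% of RA and 69.8% of OIR cells with Cxcl2 held Ccl2. The lowest pair in both libraries was Ccl6 with Ccl2: Ccl2 was in 41.6% of the cells with Ccl6 in RA and in 59.5% in OIR. In macrophage-like cells 98.0% of RA and 97.6% of OIR cells with Ccl7 held Ccl2, against 78.0% and 80.0% of all.

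**Figure D5:**
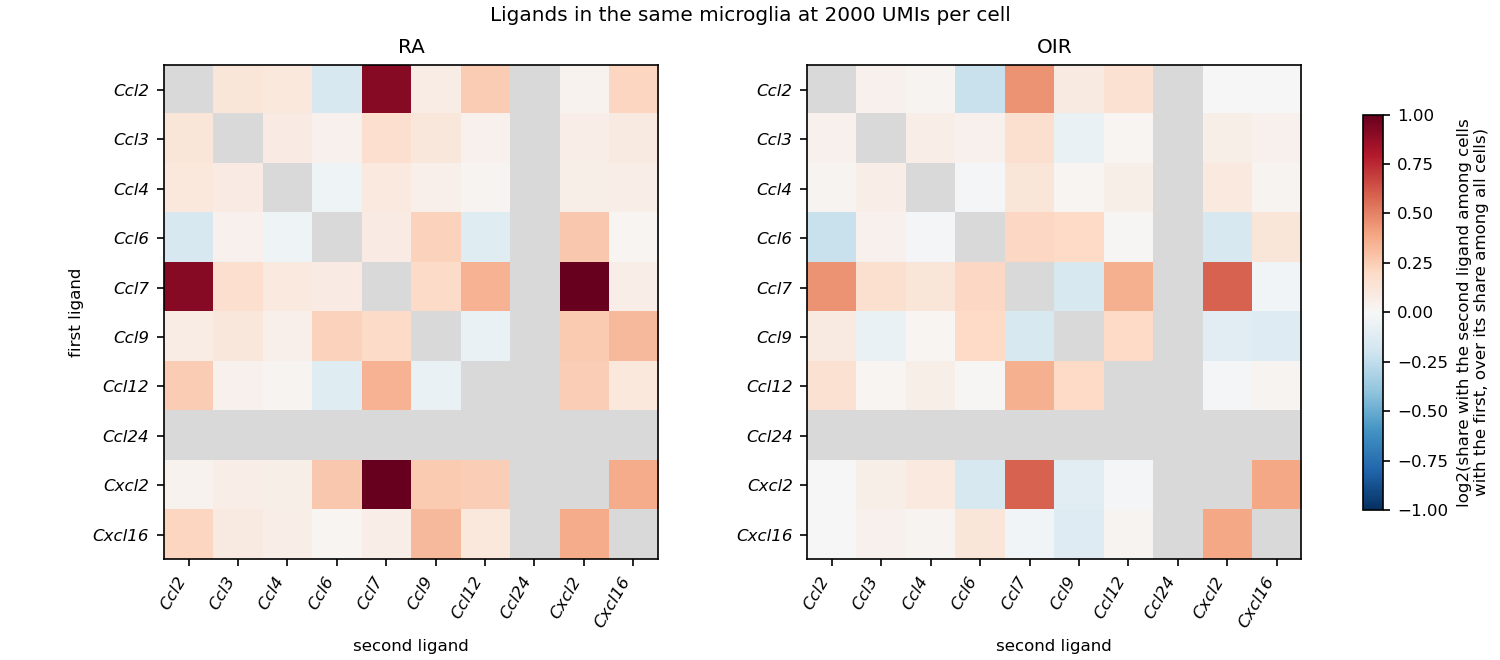
For each pair of ligands, log2 of the share of cells with the second ligand (columns) among cells with the first (rows) over its share among all cells, in 705 RA and 374 OIR microglia-like cells outside the Malat1-poor clusters at 2000 UMIs per cell, with grey where a ligand was in under 20 cells. The Ccl7 squares with Ccl2 and Cxcl2 are the reddest in both libraries. Squares with Ccl3 or Ccl4 cannot lie far above 0, since most of these cells held those ligands.

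Across 16 groups (myeloid clusters by library with at least 20 cells), the genes most like each ligand were named from 5211 genes by Pearson's r of log2(CPM + 5). These groups share 2 libraries and differ in depth and Malat1, so the values are a description. Ccl3 was most like Ccl4 (r = 0.966), Nfkbid (0.95), an inhibitor protein of NF-kappaB, and Ier3 (0.939), a gene of the ex vivo and stress list. Ccl4 was most like Nfkbid (0.977), Ccl3 (0.966) and Nlrp3 (0.960). Cxcl2 was most like Cd86 (0.905), Spred1 (0.902) and Ccl2 (0.897), Ccl2 like Rilpl2 (0.905), C5ar1 (0.902) and Cxcl2, and Ccl7 like Ctsc (0.954), Ehd4 (0.865) and Cxcl2 (0.860). The profile of Ccl12 was most like that of Etv5 (0.938), Serinc3 (0.909), a microglial marker, and Ltc4s (0.886). Ccl6 was like S100a6 (0.901), Syf2 (0.897) and Anxa1 (0.891) and ran against Ccl3 (-0.537). Ccl9 had the weakest best match (Pstpip1, 0.777), followed by Dusp22 (0.769) and Lyz1 (0.763). Cxcl16 was like Cd72 (0.843), M6pr (0.841) and Ctsb (0.823). Ccl24 was like Mmp13 (0.916), Prph2 (0.887), a gene of the rod list, and Adam33 (0.875). Among these groups Ccl24 was over 50 CPM only in the larger macrophage cluster (335 in RA and 209 in OIR), so its values rest on that cluster. The summed rod list was 943 CPM in RA and 747 in OIR macrophage-like cells, against 82.9 and 95.3 in microglia-like cells. The part of rod RNA in this likeness was not tested.

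Of the 27 other chemokine ligands in the files, 5 reached 50 CPM in at least 1 class: Ccl5, Ccl22, Cxcl1, Cxcl10 and Pf4. Cxcl10, an interferon-induced ligand of Cxcr3, stood at 765 in RA and 855 in OIR microglia-like cells, 1682 and 3034 in dividing cells, and 1358 and 716 in macrophage-like cells, with log2 ratios of 0.16 (0.10 to 0.22), 0.85 (0.69 to 1.02) and -0.92 (-1.03 to -0.81). Its direction differed between microglia and macrophages, as that of Cxcl2 did. The summed list of 11 interferon response genes went from 2508 to 1504 in macrophage-like cells and from 206 to 293 in microglia-like cells. That list was lower in OIR in dividing (702 to 490) and monocyte-like cells (4671 to 1980), where Cxcl10 was higher. In monocyte-like cells Cxcl10 stood at 219 in RA and 271 in OIR, a log2 ratio of 0.30 (0.001 to 0.61). The part of the list in the Cxcl10 values was not tested. Cxcl1, a neutrophil attractant like Cxcl2, was highest in macrophage-like cells, at 139.5 in RA and 195 in OIR. In dividing cells Cxcl1 had 0 UMIs in RA and 102 in OIR, 5.35-fold higher against a floor of 3 UMIs. The 102 UMIs lay in 7 of the 117 OIR cells, 46 of them in 1 cell. With only 17 RA cells, the 0 is not read as a difference. Pf4, a platelet chemokine also made by tissue macrophages, was lower in OIR in macrophage-like cells, from 2979 to 1632. In monocyte-like cells the summed UMIs of Ccl5 and Ccl22 gave log2 ratios of 2.52 (1.87 to 3.23) and 2.24 (1.56 to 3), and those of the receptor Ccr7, a marker of migrating dendritic cells, 2.48 (1.74 to 3.30). These rested largely on single OIR cells: 1 cell held most of the 170 Ccl5 UMIs, 1 held 108 of 128 Ccl22 UMIs and 1 held 113 of 128 Ccr7 UMIs. Ccr7 was found in 5 of the 53 RA and 3 of the 92 OIR cells, and Ccl22 in 4 cells of each library.

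Of the 23 chemokine receptors, 7 reached 50 CPM. In microglia-like cells Cx3cr1, the receptor of fractalkine and a microglial marker, was at least 2-fold lower in OIR (2021 against 759), and Ccrl2, a non-signaling receptor, had a log2 ratio of 0.70 (0.64 to 0.76). Ccr2, the receptor of Ccl2, Ccl7 and Ccl12, was highest in monocyte-like cells (231 in RA and 374 in OIR) and was at 0.508 and 2.67 in microglia-like cells. Ccr1, which binds Ccl3, Ccl6 and Ccl9, was highest in macrophage-like cells (573 and 739).

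Of 16 NF-kappaB and inflammatory cytokine genes, 14 were compared in microglia-like cells and 0 of them were past 2-fold in either direction, with a median log2 ratio of -0.23 against 0.03 for all genes. The highest ratios in that list were those of Il1b (0.64) and Tnf (0.52) and the lowest those of Rela (-0.57) and Nfkb1 (-0.52). Of the ex vivo and stress genes, 17 were compared and 2, Egr1 (-1.07) and Btg2 (-1.06), were at least 2-fold lower in OIR, with 0 higher and a median of -0.41. In macrophage-like cells the medians of these 2 lists were -0.35 and -0.56, against 0.16 for all genes.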

How the data were processed

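The authors sequenced 1 library of sorted retinal myeloid cells per condition (10x Genomics 3′ v3), pooled from several retinas, and deposited filtered matrices of UMI counts made with Cell Ranger 3.1.0 on mm10. The values used here are those raw counts. Cells were those Cell Ranger called. Following the methods of the study, the 2% of cells with most genes in each library, which stands in for doublet removal since no doublet caller was run, and cells over 20% mitochondrial UMIs were left out. The libraries were integrated by canonical correlation on 3000 anchor genes (2968 and 2966 in the 2 rounds once chemokine genes were left out) and clustered (Seurat 5.3.0 in R 4.3.3, 30 dimensions, 20 neighbours, resolution 0.5, then 0.8 on the clusters in which over 10% of cells held Ptprc). Clusters were named by marker lists, and the naming rule was set after the data were seen, so a class can differ from that of the study. No annotation of cells was used.

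UMIs were summed per class and library and scaled to an equal total (CPM). Intervals (95%) were exact Poisson for levels, exact conditional for ratios and Clopper-Pearson for shares (scipy 1.17.1), and cover counting error only. UMIs of 1 ligand gather in few cells, so the true error is larger. A group at 0 took a floor of 3 UMIs. Ratios were compared where a gene reached 50 CPM in either group. With 1 library per condition there was no test. The ratio intervals were tested on simulated Poisson counts, which do not hold the gathering of UMIs in few cells. The thinning was checked on the real counts, and the intervals of levels and shares were not tested. The 10 ligands and all gene lists were chosen with earlier results of these data known. Named beside them were family members and receptors at 50 CPM or more, except an item that is not reported here, and the 3 genes most like each ligand. Whether counting used strand is not given in the sources used here. How reads in the overlapping spans of Ccl3 and Ccl4 were assigned is therefore not known here.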

Additional observations from a re-analysis of the deposited data

Results flagged for a closer look

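Ligands whose OIR over RA ratio had opposite signs in different cell classes, with an interval that did not hold 0 in each class named, were singled out, and these differences between classes were not tested, since each condition had 1 library. Cxcl2 had a log2 ratio of 1.12 in microglia-like, 4.36 in dividing and 0.67 in monocyte-like cells but -0.64 in macrophage-like cells. Ccl3 had 0.38 in monocyte-like cells against -0.30 in microglia-like, -0.12 in dividing and -0.83 in macrophage-like cells. The sign of Ccl3 changed under 3 of 14 other settings in monocyte-like cells and under 3 of 15 in dividing cells, and that of Cxcl2 under 3 of 15 in dividing cells. Ccl6 had 0.57 in macrophage-like cells against -0.19 in microglia-like and -0.32 in monocyte-like cells.

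Outside the 4 classes, OIR levels above the RA level were seen in clusters the comparisons did not use. In the photoreceptor cluster rich in nuclear RNA, Ccl7 was at 347 CPM, 163 of its 166 UMIs in 1 cell, and Ccl2 at 263, 119 of 126 UMIs in 1 cell. Ccl24 was at 41.8 there, with all 20 UMIs in 1 cell. In the unnamed shallow cluster Cxcl2 was at 1527 in OIR, from 24 UMIs in 13 cells.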

How the results depend on the processing

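No paired analysis was possible because each condition has 1 library, and for the same reason no replicate could be left out. Settings chosen after seeing the data left out Malat1-poor clusters, dividing cells rich in macrophage UMIs, or the 1 cell per library with most UMIs of each ligand. Of 546 ratios of single ligands under other settings, 326 stayed within their interval, 194 lay outside it and 26 changed sign where the interval did not hold 0. Among the others, 11 had the opposite sign where the interval held 0. Under other thinning depths 21 of 120 share differences changed sign, all where the intervals of the libraries overlapped. In microglia-like and macrophage-like cells Ccl3, Ccl4, Ccl7, Ccl12 and Cxcl2 kept their direction under all 15 settings. These settings pooled the clusters of a class. Among single microglial clusters, Ccl2, Ccl3, Ccl4 and Ccl7 did not keep the same direction throughout. The causes of the changes were not tested.

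The number of ligands past 2-fold, 4 in dividing cells, was 2 with a Ptprc limit of 25% of cells, with cells of at least 2000 UMIs and with the mean over cells. It went from 2 to 4 in macrophage-like cells with classes from summed markers. In microglia-like cells it went from 1 to 0 with the Ptprc limit of 25% and at resolution 1.2, and to 2 without ribosomal and mitochondrial genes in the total. In monocyte-like cells it went from 1 to 2 with summed markers, with thinning and with the mean over cells, and to 3 with the top 5% left out and without the top cell. These counts join ligands higher and lower in OIR. The share of all genes past 2-fold under these settings was not computed, so the changes are not read as a trait of the ligands.

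The median log2 ratio in dividing cells, 0.63, was 0.94 with at least 2000 UMIs, 0.021 with thinning, -0.027 with the mean over cells, 0.16 with a mitochondrial limit of 10%, -0.11 at resolution 1.2, 1.67 with the top 5% left out, -0.24 without macrophage-rich cells and 1.65 without the top cell. In macrophage-like cells, -0.31 became -0.14 with the Ptprc limit of 25%, with thinning and at resolution 1.2, -0.13 without integration, -0.47 when centred on all genes and 0.068 with the top 5% left out. In microglia-like cells, -0.06 became 0.17 with thinning. In monocyte-like cells, 0.24 became -0.11 with summed markers, -0.034 without the gene filter, -0.040 without integration, 0.54 with the top 5% left out and 0.47 without the top cell.

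Single ligands changed sign as follows. With summed markers Ccl12 was 0.37 and Ccl7 -0.51 in dividing cells, Ccl2 -0.020 in macrophage-like and Ccl3 -0.27 in monocyte-like cells. Without the gene filter Ccl12 was 0.76, Ccl3 0.058 and Ccl7 -0.44 in dividing cells, and Ccl3 -0.034 and Ccl7 -0.52 in monocyte-like cells. Without integration Ccl12 was 0.45 and Ccl7 -0.58 in dividing cells and Ccl7 -0.040 in monocyte-like cells. With the top 5% left out Ccl3 was 0.21 and Ccl4 0.089 in dividing cells, and Ccl12 1.001 and Ccl3 -0.11 in monocyte-like cells. With the mean over cells Ccl6 was 0.010 in microglia-like cells, and Ccl7 -0.92 and Cxcl2 -0.027 in dividing cells. In dividing cells, thinning gave 0.021 for Ccl3 and -0.082 for Ccl9, the mitochondrial limit of 10% gave -0.49 and resolution 1.2 gave -0.11 for Cxcl2, and leaving out macrophage-rich cells gave -0.25 for Ccl7. Without the top cell Ccl12 was 0.044 in dividing and 0.47 in monocyte-like cells.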
